A study of Mus musculus with 6 samples.

Results

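The mouse mitochondrial genome carries 37 genes, of which 2 encode ribosomal RNAs (rRNA), 22 encode transfer RNAs (tRNA) and 13 encode proteins. These genes were taken by their symbol, which starts with mt-, from the 55450 genes of the GENCODE annotation, and reads of 18 to 35 nt found on either strand of a gene without a mismatch were counted. A total of 248519 reads with 13450 distinct sequences met this rule, and none of these sequences lay at more than 1 place among the 37 genes. The reads came from 6 small RNA libraries of whole testis of C57BL/6 mice, with 1 library per group, so that no spread between animals could be estimated and no test was made.

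The groups were Dnmt3L wildtype (WT) and Dnmt3L knockout (KO) fetuses at 16.5 dpc (days after conception), with 7 or 8 mice in each pool, and pups at 10 dpp (days after birth) that were Dnmt3L wildtype, Dnmt3L knockout, Miwi2 wildtype or Miwi2 knockout, for which 3 mice were pooled per genotype. Controls were littermates. Dnmt3L is a cofactor of the enzymes that methylate DNA in fetal male germ cells, and Miwi2 (Piwil4) is the PIWI protein that carries piRNAs into the nucleus of those cells. Whole testis holds Sertoli, peritubular, interstitial and vascular cells beside germ cells, so fewer cells of a type and less RNA per cell cannot be told apart. Values are listed below in one fixed order, called library order: the fetal Dnmt3L WT, the fetal Dnmt3L KO, the 10 dpp Dnmt3L WT, the 10 dpp Dnmt3L KO, the Miwi2 WT and the Miwi2 KO.

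Both strands of the mitochondrial genome are copied into long transcripts in which tRNAs sit between the other genes. RNase P cuts at the 5′ end of most tRNAs and the RNase Z Elac2 at the 3′ end. These cuts free the rRNAs and mRNAs in between. Trnt1 then adds the bases CCA to the 3′ end of each tRNA, since the mitochondrial genes do not encode them. In germ cells, piRNA factors such as Pld6 and Tdrkh sit on the outer membrane of mitochondria, next to the granules in which piRNA precursors are trimmed. A piRNA typically starts with U.

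The reads of the leading genes began at gene borders, which is why their sequences are shown first. Each line gives a tRNA gene whole, or 60 bases of an rRNA gene, 5′ to 3′, with the most abundant sense read in capitals.
mt-Rnr2: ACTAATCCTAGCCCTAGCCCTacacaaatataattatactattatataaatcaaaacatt
mt-Ts2: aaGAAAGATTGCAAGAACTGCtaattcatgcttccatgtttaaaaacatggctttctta
mt-Tm: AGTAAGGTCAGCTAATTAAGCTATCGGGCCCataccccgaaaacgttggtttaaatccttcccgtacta
mt-Rnr1: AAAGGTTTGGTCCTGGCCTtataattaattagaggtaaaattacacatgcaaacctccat
mt-Tv: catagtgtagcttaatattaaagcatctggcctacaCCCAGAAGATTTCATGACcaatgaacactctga
mt-Ts1: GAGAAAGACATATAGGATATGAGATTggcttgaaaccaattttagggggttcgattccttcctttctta
mt-Tc: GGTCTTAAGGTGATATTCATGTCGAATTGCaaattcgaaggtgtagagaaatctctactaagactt
mt-Tv with its CCA tail: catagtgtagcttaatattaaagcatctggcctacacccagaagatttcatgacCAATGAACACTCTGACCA
On GRCm38, the capitals lie on the plus strand at chrM:1094-1114 (mt-Rnr2, the 16S rRNA), chrM:11615-11633 (mt-Ts2, a serine tRNA that lacks the D arm), chrM:3845-3875 (mt-Tm, methionine), chrM:70-88 (mt-Rnr1, the 12S rRNA) and chrM:1061-1078 (mt-Tv, valine), and on the minus strand at chrM:6913-6938 (mt-Ts1, serine) and chrM:5228-5257 (mt-Tc, cysteine). The leading reads of mt-Rnr2, mt-Tm, mt-Rnr1, mt-Ts1 and mt-Tc started on base 1 of their gene, that of mt-Ts2 on base 3 and that of mt-Tv on base 37. The last line shows a read outside the counting rule: it ends in the added CCA and starts on base 55 of mt-Tv, the base after the leading mt-Tv read inside the gene ends.

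The libraries held 28701563 to 47232494 reads, of which 85.3% to 95.6% had 18 to 35 nt, and 3 counts, the smallest amount taken as measurable, correspond to 0.0635 to 0.105 RPM (reads per 1000000 library reads). Both Dnmt3L libraries of 10 dpp stood apart: reads of 29 to 35 nt were 1.40% and 0.124% of their 18 to 35 nt reads, against 13.3% to 23.1% in the other 4 libraries, and their files alone held reads of up to 100 nt. Small RNA reads of the targeted genes were few and do not check the genotypes, since reads of this size do not measure an mRNA and the deleted part is not stated: Dnmt3l had 2.48 RPM in the fetal WT and 6.37 RPM in its KO, and at most 0.156 RPM at 10 dpp, and Piwil4 had 0.0889 RPM in the Miwi2 WT and 0.215 RPM in its KO. Cell markers among miRNA genes also differed between libraries. The summed level of 11 germ cell miRNA genes found of 12 listed was 2534 to 30821 RPM, that of the Sertoli cell gene Mir202 30.3 to 425 RPM, and that of 5 peritubular and fibroblast genes 7669 to 43913 RPM. Of the markers of other organs, Mir122 of liver was at 0 to 6.64 RPM and the 3 Mir124a genes of brain at most at 0.822 RPM each. However, 4 heart and muscle genes summed to 16.9 to 237 RPM, nearly all of it Mir133a-1.

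Mitochondrial reads were a small part of every library. They made up 1272, 1080, 896, 885, 656 and 1465 RPM in library order, so that the Miwi2 KO library was highest and the Miwi2 WT library lowest. The 10 genes with the most reads held 90.4% to 95.2% of them in each library. At the other end, mt-Td (aspartate) had 40 reads over all 6 libraries. mt-Tf (phenylalanine) was at 0 reads in the fetal Dnmt3L KO and Miwi2 WT libraries. At these depths this allows a level of reads inside the gene of up to 0.0635 and 0.0667 RPM. Reads of mt-Tf that end in an added C, CC or CCA, which the rule leaves out, numbered 4 and 3 there (0.0847 and 0.0667 RPM).

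The gene classes took very different shares from library to library. tRNA genes held 84.1%, 38.7%, 42.2%, 38.3%, 48.8% and 63.1% of mitochondrial reads in library order, and rRNA genes 11.5%, 56.5%, 50.3%, 54.1%, 41.9% and 27.2%. tRNA genes held the most reads in the fetal Dnmt3L WT and in both Miwi2 libraries, and rRNA genes in the other 3. This order leaves out tRNA reads that end in an added C, CC or CCA, which the rule did not count. In the Dnmt3L WT and KO of 10 dpp, tRNA genes had 378 and 339 RPM and rRNA genes 451 and 479 RPM. Tailed reads had 115 and 193 RPM there, and with them tRNA reads exceeded rRNA reads in both. Genes of mRNAs held 4.43% to 9.64% throughout.

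**Figure D1:**
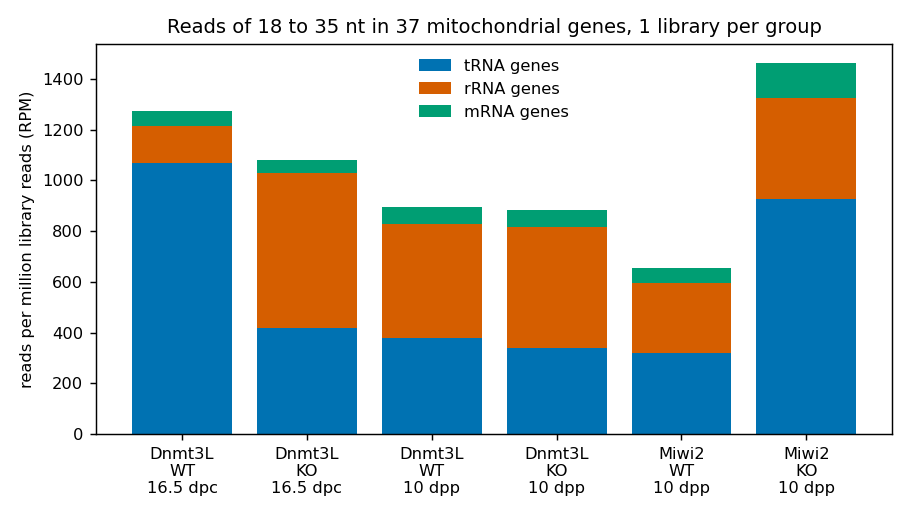
Stacked bars give the RPM of reads of 18 to 35 nt in tRNA, rRNA and mRNA genes of the mitochondrial genome, with 1 bar per library. Reads with an added C, CC or CCA are not included. The Miwi2 KO bar is the highest at 1465 RPM, and the tRNA part is largest in the Dnmt3L WT library of 16.5 dpc, at 1070 of 1272 RPM.

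Nearly all reads had the strand of their gene. The sense share was 98.2%, 97.4%, 97.9%, 97.1%, 96.2% and 96.9% in library order, and in mRNA genes alone 78.1% to 86.0%. Of the 37 genes, 28 are on the plus strand and 9 on the minus strand. The sense share fell under 50% in 3 genes: mt-Tp (proline) with 15.7%, mt-Ti (isoleucine) with 29.1%, and mt-Nd6, the only mRNA of the minus strand, with 46.0%.

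First bases were unlike those of the libraries as a whole. U stood first in 7.49%, 4.73%, 11.9%, 6.62%, 5.15% and 4.75% of mitochondrial reads in library order, against 60.2% and 63.6% of all reads of this size in the fetal libraries and 55.8% to 70.1% at 10 dpp. A stood first in 52.2% to 87.0% of mitochondrial reads, which is the first base of mt-Rnr2, mt-Ts2 and mt-Tm. G stood first in 33.02% of mitochondrial reads of the fetal Dnmt3L WT library and in 4.78% of those of its KO, and base 3 of mt-Ts2, the main start in the former, is a G. In mRNA genes, where reads were spread, U stood first in 21.6% to 29.04% and A in 36.1% to 42.0%.

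Lengths gathered at a few values. The most frequent length was 19 nt in the fetal Dnmt3L WT library (25.8% of mitochondrial reads), 24 nt in its KO (23.8%) and 21 nt in each of the 4 libraries of 10 dpp (19.8% to 24.8%). A second group of tRNA reads at 31 nt was present in both fetal and both Miwi2 libraries and held 56.4% of the tRNA reads of the fetal KO. Reads of 29 to 35 nt were 5.70% and 0.622% of mitochondrial reads in the Dnmt3L WT and KO libraries of 10 dpp, which were short of long reads of every kind.

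**Figure D2:**
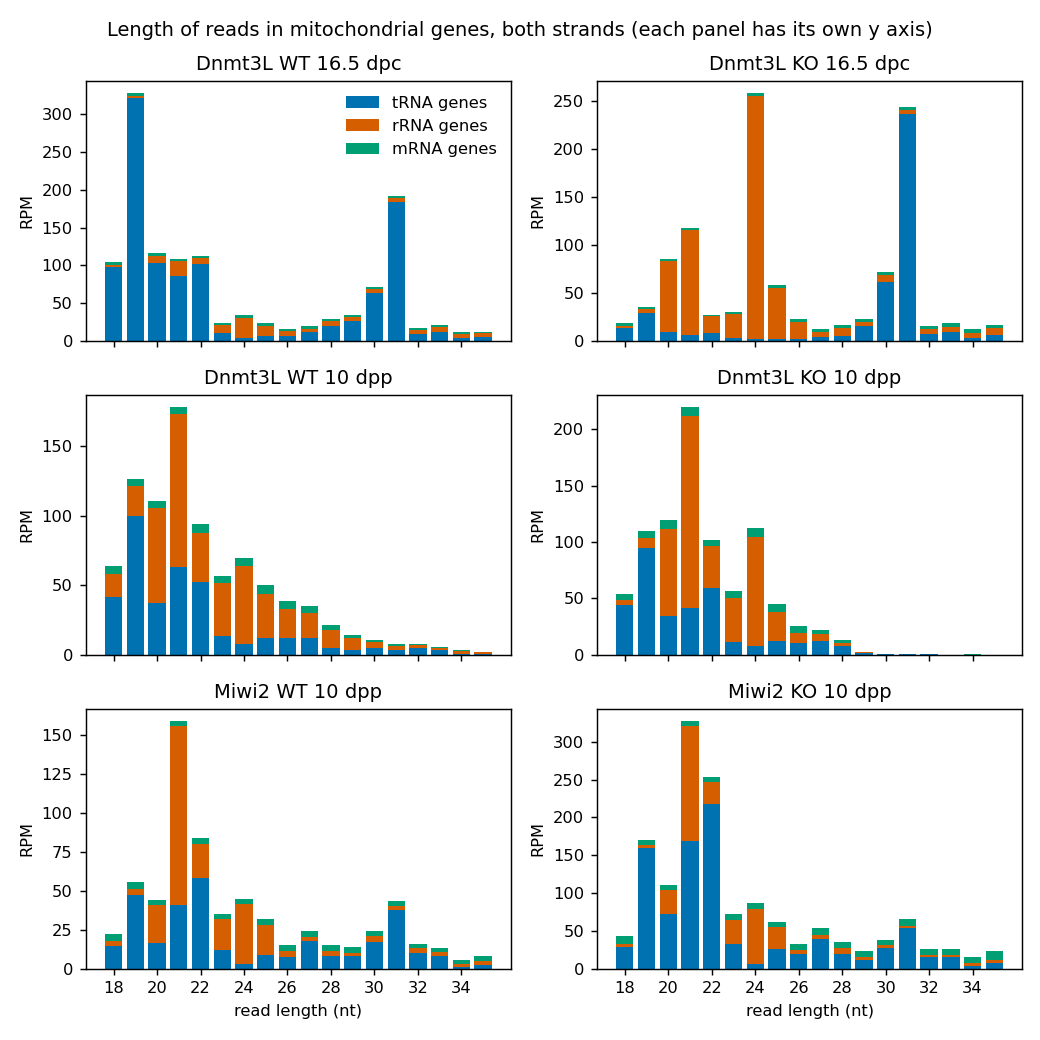
Each panel gives, for 1 library, the RPM of mitochondrial reads of both strands by read length, stacked by gene class, with a y axis of its own. Peaks are seen at 19 and 31 nt in the fetal WT, at 24 and 31 nt in the fetal KO, and at 21 nt in all 4 libraries of 10 dpp.

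The start of reads in a gene differed by class. Of the sense reads of tRNA genes 63.0% started on base 1 and 26.9% on bases 2 to 5, and 0.0969% ended on the last base of the gene. Of those of rRNA genes 78.0% started on base 1, and of those of mRNA genes 4.39%. The tRNA values rest on mt-Ts2 and mt-Tm, which held 85.3% of the sense tRNA reads. In the other 20 tRNA genes together 42.02% of sense reads started on bases 1 to 5, and in 6 of these genes over 50% did.

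mt-Rnr2, whose first base directly follows the last base of mt-Tv, had the most reads of all, with 125, 592, 363, 452, 260 and 380 RPM. The fetal WT library was the lowest and the fetal KO the highest. Of its sense reads 84.2% started on base 1, and by library 56.6%, 91.5%, 63.0%, 91.0%, 88.4% and 90.7%. So both Dnmt3L WT libraries had the largest parts from inside this gene. The 21 nt read shown above had 16.9, 109, 89.3, 164, 112 and 149 RPM, and the 24 nt read with the same start 23.03, 250, 38.8, 89.8, 35.99 and 69.6 RPM. The longer form exceeded the shorter in both fetal libraries, and the shorter exceeded the longer in all 4 libraries of 10 dpp.

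mt-Ts2 was next, with 644, 50.2, 238, 235, 207 and 740 RPM. The Miwi2 KO and fetal Dnmt3L WT libraries were the highest, and the fetal Dnmt3L KO was lower than all others. Per length of gene, mt-Ts2 led the 37 with a mean of 5972 RPM per kb, ahead of mt-Tm with 1829 and mt-Tv with 404, while mt-Rnr2 had rank 5 with 229. Most reads of mt-Ts2 and mt-Rnr2 came from 1 end of the gene, so the division itself favours the shorter gene (59 against 1582 nt). Of the 82315 reads of mt-Ts2, none was antisense.

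mt-Ts2 reads had 2 starts. Base 1 took 38.7%, 48.2%, 59.4%, 62.5%, 80.5% and 74.7% of its sense reads in library order, and base 3 took 56.1%, 46.7%, 34.7%, 31.4%, 15.995% and 21.04%. The fetal WT was the only library with more reads from base 3 than from base 1, and both Miwi2 libraries had the smallest parts from base 3. The 19 and 20 nt reads from base 3 and the 21 and 22 nt reads from base 1 ended on base 21 or 22. These 4 forms together with the 19 nt read from base 1, which ended on base 19, were the 5 most abundant. The more frequent end differed by start in each library. From base 3, reads ending on base 21 were 24.8% of all sense reads of the gene and those ending on base 22 were 9.13%. From base 1, reads ending on base 22 were 21.99% and those ending on base 21 were 15.8%.

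mt-Tm had 272, 316, 13.5, 24.7, 57.5 and 72.9 RPM. Both fetal libraries were highest, and both Dnmt3L libraries of 10 dpp lowest. Its 31 nt read, the 5′ part up to base 31, made up 62.9%, 73.4%, 0.781%, 2.55%, 49.6% and 46.96% of its sense reads in library order. As both 10 dpp Dnmt3L libraries held few reads of 29 to 35 nt, a lower level of mt-Tm and a lack of long reads cannot be told apart there.

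mt-Rnr1 had 21.2, 18.4, 87.8, 26.5, 14.997 and 18.2 RPM, with the Dnmt3L WT library of 10 dpp above all others. Its reads were spread over the gene, with 5.06% on base 1 and 1.85% in the read shown. mt-Tv had 68.1, 13.2, 38.4, 27.9, 7.38 and 12.4 RPM inside the gene. Its 18 nt read from bases 37 to 54 had 50.7, 3.60, 7.33, 13.9, 1.04 and 1.80 RPM, so that the fetal WT was far above the rest.

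Other tRNAs among the 10 leading genes were 5′ reads of the minus strand. mt-Ts1 had 10.2, 5.23, 28.999, 13.4, 15.2 and 27.2 RPM, with 96.1% of its sense reads from base 1. mt-Tc had 26.2, 6.12, 6.07, 1.43, 3.18 and 20.1 RPM, with 74.3% from base 1, and its 30 nt read made up 47.3%. The fetal Dnmt3L WT and the Miwi2 KO were highest for mt-Tc, as they were for mt-Ts2.

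Of the mRNA genes, mt-Co1, mt-Nd5 and mt-Co2 were among the 10 leading ones. mt-Co1, a subunit of complex IV, had 16.9, 14.3, 18.6, 19.4, 19.9 and 46.8 RPM, and mt-Nd5, a subunit of complex I, 7.36, 7.39, 5.91, 8.15, 6.31 and 16.4 RPM. Both were highest in the Miwi2 KO, with the other 5 libraries close together. mt-Co2, of complex IV, had 5.07, 5.40, 10.2, 8.57, 4.999 and 9.97 RPM. Their leading reads lay inside the genes and held 1.64% to 4.62% of each gene's sense reads.

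**Figure D3:**
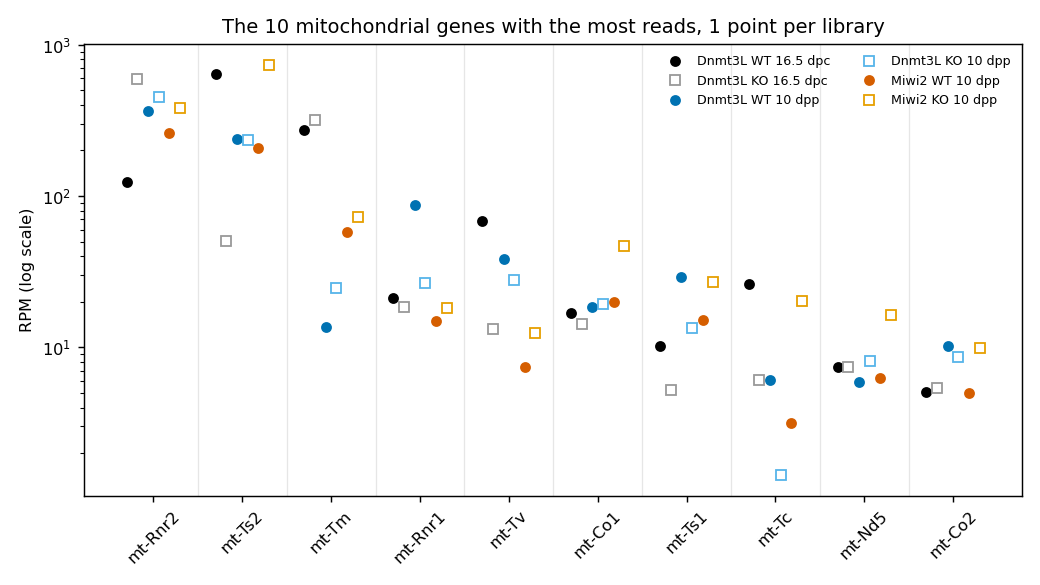
Each point is the RPM of 1 library, on a log scale, for the 10 mitochondrial genes with the most reads, with filled circles for WT and open squares for KO. mt-Ts2 runs from 50.2 RPM in the fetal Dnmt3L KO to 740 RPM in the Miwi2 KO, and mt-Rnr2 from 125 to 592 RPM.

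Starts on base 1 of plus-strand rRNA and mRNA genes were frequent only next to a plus-strand tRNA, but not next to every one. Minus-strand tRNAs, which can lie nearer to a gene, were not counted here. The gene starts 0 or 1 base after a plus-strand tRNA in mt-Rnr2 (84.2% of sense reads from base 1), mt-Nd4l (48.7% of 308), mt-Nd3 (40.1% of 302), mt-Atp8 (35.5% of 169), mt-Nd2 (14.0%), mt-Nd1 (13.1%), mt-Rnr1 (5.06%), mt-Co2 (2.90%) and mt-Nd5 (0% of 1449). It starts 162 to 2403 bases after the last plus-strand tRNA in mt-Co1, mt-Co3, mt-Atp6, mt-Nd4 and mt-Cytb, whose shares were 0% to 0.218%.

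Antisense reads numbered 6556, or 23.5, 27.7, 19.1, 25.2, 25.2 and 44.7 RPM in library order. mt-Tp with 1350 and mt-Ti with 972 held the most, in each case where a tRNA of the other strand ends next to the gene. The read shown here is the most abundant one and lies on the minus strand at chrM:3753-3771.
mt-Ti antisense: AAATAAGAGGGCTTGAACC
Its 5′ end is the base after the 3′ end of mt-Tq, the glutamine tRNA of the minus strand. Reads starting there numbered 911, and reads starting at the base after mt-Tt (threonine), at chrM:15356 opposite mt-Tp, numbered 781. In all, 26.5% of antisense reads started on the base after a tRNA, at 5 of 1036 start positions. The read at mt-Ti had 0.519, 3.20, 3.15, 3.97, 0.378 and 0.699 RPM.

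Some reads could also stem from nuclear copies of mitochondrial DNA. Of the mitochondrial reads 3.84% (9548) were also found in 27 other genes, led by Gm13340 on chromosome 2 (2839 reads of mt-Co1) and Gm28661 on chromosome 1 (1702 reads of mt-Co2). All reads of mt-Co2, mt-Co3 and mt-Nd4l and 99.8% of those of mt-Atp6 were shared in this way, as were 61.0% of those of mt-Co1, so their origin cannot be told apart. For mt-Ts2, mt-Tm, mt-Tv, mt-Rnr1, mt-Ts1 and mt-Tc the shared part was 0%, and for mt-Rnr2 it was 0.297%. Only annotated transcripts were searched, so a nuclear copy outside them would be missed, and 0% does not show that there is none.

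Reads that end in the added CCA, in CC or in C are the 3′ ends of mature tRNAs. They are not in the gene sequence, so the rule did not count them. They numbered 32330, or 132, 138, 115, 193, 115 and 137 RPM, and 1 read of them was also found in another gene. mt-Tv held 23224 of these reads, against 6546 sense reads inside the gene, at 80.7, 104, 73.4, 161, 89.0 and 93.3 RPM. In the Dnmt3L KO of 10 dpp, which was highest, 56.1% of the tailed mt-Tv reads had 22 nt, and in the fetal WT 55.5% had 18 nt.

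The part of the tRNA that gave most reads differed between genes. With tailed reads included, 5′ reads (from bases 1 to 5) led in 8 of the 22 tRNA genes, tailed reads in 6 and reads inside the gene in 8. 5′ reads were 99.8% of all sense reads of mt-Ts2, 97.6% of mt-Ts1 and 91.5% of mt-Tm. Tailed reads were 93.3% of those of mt-Tw (tryptophan), 80.3% of mt-Tk (lysine), 79.2% of mt-Tp, 78.0% of mt-Tv and 72.6% of mt-Te (glutamate). Reads inside the gene were 100% of those of mt-Tr (arginine), 84.1% of mt-Th (histidine) and 80.3% of mt-Ta (alanine). mt-Tg was divided, with 49.1% inside the gene and 46.5% tailed, and so was mt-Tq, with 44.1% 5′ reads. Only 47 of 82362 mt-Ts2 reads were tailed.

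**Figure D4:**
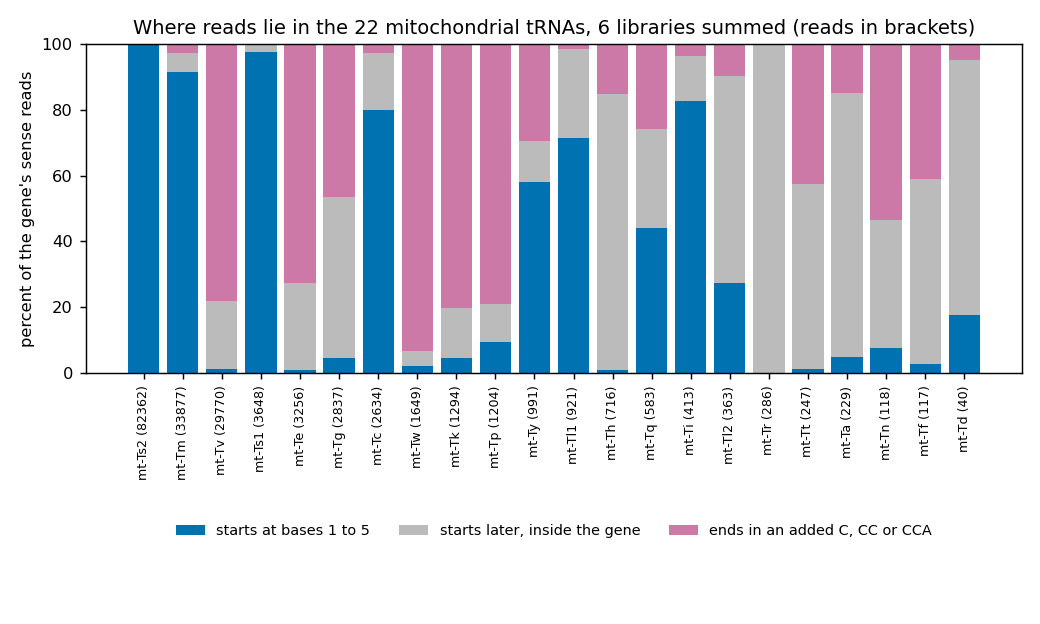
Bars give, for each of the 22 tRNA genes with all 6 libraries summed, the percent of sense reads that start at bases 1 to 5, start later inside the gene, or end in an added C, CC or CCA, with the number of reads in brackets. mt-Ts2 is almost all 5′ reads (99.8%), while mt-Tw (93.3%) and mt-Tv (78.0%) are mostly tailed reads.

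For the comparisons between libraries, a gene with at least 500 reads over both libraries was called where its ratio was larger than 95% of the ratios, in either direction, between the Miwi2 WT and Dnmt3L WT libraries of 10 dpp. This limit was 1.93 on the log2 scale, or 3.80-fold, from 8042 genes. It measures how far apart 2 control pools of the same age were, in litters, length profile and all else, and it is no test. Mitochondrial genes themselves differed between these pools: of 11 past the minimum, mt-Tm was 4.25-fold higher in the Miwi2 WT, and mt-Tv (0.192-fold), mt-Rnr1 (0.171-fold) and mt-Tg (glycine, 0.163-fold) were lower. The sum over all 37 genes was 0.732-fold (95% interval from counting error 0.721 to 0.744). mt-Tm at 29 to 35 nt was 67.3-fold, where all reads of that length were 8.78-fold. As the limit was set from this same comparison, 95% of the 8042 genes lie within it by construction. The 4 genes past it are therefore no separate result. How all genes past it divide into higher and lower was not counted. The median log2 ratio was -0.48 over the 11 genes and 0.58 over all genes.

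In the fetal Dnmt3L KO library, reads of mt-Ts2 were far fewer and reads of mt-Rnr2 far more abundant than in the WT. The sum over the 37 genes was 0.849-fold in the KO (0.839 to 0.859), nearer to 1 than the ratio between both WT pools. Its direction turned to 1.66-fold within 24 to 32 nt, to 1.64-fold without mt-Ts2 and to 1.30-fold within 20 to 28 nt, and without mt-Rnr2 it was 0.425-fold. tRNA genes were 0.391-fold (0.384 to 0.397), rRNA genes 4.18-fold (4.07 to 4.30) and mRNA genes 0.919-fold. Each of the first 2 values was carried by 1 gene: without mt-Ts2 tRNA genes were 0.862-fold, and mt-Rnr1, the other rRNA gene, was 0.867-fold. Tailed tRNA reads were 1.05-fold. Among nuclear classes, snoRNA genes were 1.20-fold, snRNA genes 0.605-fold and nuclear rRNA genes 0.689-fold. The summed peritubular and fibroblast markers were at 15616 RPM in the WT and 7669 in the KO, with 3 of 5 genes lower, led by Mir143 (9835 and 3418 RPM). The other lower genes, Mir199a-1 (2733 and 1759 RPM) and Mir199a-2 (2739 and 1768 RPM), had nearly equal levels and may count the same reads. Mir214 (276 and 676 RPM) and Mir145a (32.2 and 47.3 RPM) were higher. The germ cell markers were at 3179 and 2534 RPM, with 8 of 11 genes lower. The part of cell composition in the result was not tested.

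At 16.5 dpc, 10 of the 37 genes passed the minimum. 1 was higher, mt-Rnr2 (4.75-fold, 4.61 to 4.89), where 0.396% of all 7820 genes tested were called higher. 3 were lower, mt-Ts2 (0.0780-fold, 0.0747 to 0.0813), mt-Tv (0.194-fold) and mt-Tc (0.233-fold), where 0.422% of all genes were. Between both WT pools, 1 of 11 mitochondrial genes was past the same limit as higher and 3 as lower. mt-Tv was among the lower ones, at 0.192-fold in the Miwi2 WT. mt-Rnr2 (0.716-fold) and mt-Ts2 (0.871-fold) were within the limit there, and mt-Tc was under the minimum. The number of calls alone thus does not set the fetal KO apart. In the fetal KO, mt-Tm (1.16-fold), mt-Tp (1.04-fold) and mt-Nd5 (1.003-fold) were the next highest. The mt-Tp ratio was mainly one of antisense reads, which were 308 of 392 in the WT and 438 of 453 in the KO. Sense reads of mt-Tp numbered 84 in the WT and 15 in the KO, and its tailed reads were at 5.92 and 2.56 RPM. The median log2 ratio was -0.22 over the 10 genes and -0.16 over all genes. mt-Tc was not past the limit with TMM scaling, with reads of no other gene, within 24 to 32 nt or with a minimum of 100 reads, and within 18 to 28 nt it was under the minimum. With reads scaled to miRNA reads, where the limit was 2.48, only mt-Ts2 was past it. mt-Rnr2 was then at 2.44, mt-Tv at -2.17 and mt-Tc at -1.91 on the log2 scale. Within 24 to 32 nt only mt-Rnr2 was past the limit. Where distinct sequences were counted in place of reads, mt-Rnr2 was at -0.16 on the log2 scale.

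Reads of all kinds differed less at each length than those of mt-Ts2, the 29 to 35 nt class included. mt-Ts2 in the fetal KO was 0.0709-fold at 18 to 19 nt, 0.0670-fold at 20 to 23 nt, 0.295-fold at 24 to 28 nt and 0.670-fold at 29 to 35 nt, while all reads were 1.36-fold, 0.825-fold, 1.10-fold and 1.06-fold. mt-Rnr2 was 1.79-fold, 5.31-fold, 6.50-fold and 1.22-fold in the same classes. Of mt-Tv, the reads inside the gene and the tailed reads went different ways: the tailed reads were 1.29-fold, and both kinds together 0.787-fold, which is not past the limit. With tailed reads mt-Ts2 was still 0.0780-fold.

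At 10 dpp the Dnmt3L KO and WT libraries held similar amounts. The sum was 0.987-fold (0.971 to 1.003), with tRNA genes 0.898-fold, rRNA genes 1.06-fold and mRNA genes 0.984-fold. Tailed tRNA reads, which are not in these values, were 1.68-fold. Those of mt-Tv were 2.20-fold and those of all other tRNA genes together 0.766-fold. With tailed reads included, tRNA reads were no longer lower in the KO. Of 9 genes past the minimum, 0 were higher, where 0.188% of all 6377 genes were, and 0 were lower, where 70.5% of all genes were. The highest ratios were those of mt-Tm (1.82-fold), mt-Rnr2 (1.25-fold) and mt-Co1 (1.04-fold), and the lowest those of mt-Rnr1 (0.302-fold), mt-Tg (0.365-fold) and mt-Ts1 (0.464-fold). mt-Ts2 was 0.987-fold.

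Most genes were lower in this KO library. The median log2 ratio over all genes was -2.56, against -0.26 over the 9 mitochondrial genes, a difference of 2.31. Nuclear misc_RNA genes were 0.133-fold, nuclear rRNA genes 0.238-fold, snRNA genes 0.263-fold and snoRNA genes 0.701-fold, while miRNA genes were 1.17-fold. With TMM scaling, after which the median log2 ratio over all genes was -0.37, the sum was 2.17 on the log2 scale. mt-Rnr2, mt-Tm, mt-Co1 and mt-Ts2 were then called higher, where 8.62% of all genes were called higher and 0.235% lower. The direction of the sum here thus depends on the scaling. The KO also had 9770 RPM of germ cell markers against 30821 RPM in the WT, with all 11 genes lower, and fewer reads of 29 to 35 nt, and their part in the ratios was not tested.

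Without Miwi2, mitochondrial reads were more abundant in every class. The sum was 2.23-fold (2.20 to 2.26), against 0.732-fold between both WT pools. tRNA genes were 2.89-fold (2.84 to 2.95), mRNA genes 2.29-fold (2.19 to 2.40), rRNA genes 1.45-fold (1.42 to 1.49) and antisense reads 1.77-fold. Without mt-Ts2 tRNA genes were 1.65-fold. Nuclear classes were between 0.788-fold (misc_RNA) and 1.19-fold (nuclear rRNA), and miRNA genes 0.973-fold. The germ cell markers summed to 13256 RPM in the WT against 26187 RPM in the KO. Mir871 (5635 and 11956 RPM) and Mir470 (7413 and 13767 RPM) made up nearly all of both sums. 7 of the 11 genes were higher and 4 lower, the latter being Mir290a, Mir293, Mir294 and Mir295. Mir202 was at 187 and 309 RPM. The part of cell composition was not tested.

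Of 15 genes past the minimum, 1 was called, mt-Tc (6.33-fold, 5.29 to 7.63), where 4.49% of all 8327 genes were called higher and 0.144% lower. mt-Ts2 (3.57-fold, 3.48 to 3.65) and mt-Tp (3.10-fold) followed under the limit, and with TMM scaling mt-Ts2 was past it. Of the mt-Tp reads, 133 of 175 in the WT and 372 of 448 in the KO were antisense. Of the 15, 14 had ratios over 1, and the median log2 ratio was 0.996 against -0.31 over all genes. The lowest ratios were those of mt-Tm (1.27-fold), mt-Rnr1 (1.21-fold) and mt-Ty (tyrosine, 0.817-fold). Within 18 to 28 nt, mt-Tc no longer reached the minimum and 0 genes were called.

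The 6 mRNA genes past the minimum in this comparison, mt-Nd5, mt-Nd1, mt-Co1, mt-Cytb, mt-Co2 and mt-Co3, had ratios of 1.45 to 2.60, none past the limit. By distinct sequences, with a limit of 0.987, mt-Co1 was called higher in place of mt-Tc, where 7.33% of all genes were. mt-Cytb, of complex III, and mt-Nd1, of complex I, were at 6.18 and 5.55 RPM in the WT and at 13.6 RPM each in the KO. mt-Ts2 was higher at both starts, as reads from base 1 were at 167 and 552 RPM and reads from base 3 at 33.2 and 156 RPM. Tailed reads of mt-Tv were 1.05-fold and those of all other tRNA genes together 1.73-fold.

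Between the fetal and the 10 dpp Dnmt3L WT libraries, tRNA reads were fewer and rRNA reads more abundant at 10 dpp. The sum was 0.704-fold (0.695 to 0.714), tRNA genes were 0.353-fold, rRNA genes 3.09-fold and mRNA genes 1.20-fold. Of 12 genes past the minimum, mt-Rnr1 was higher (4.14-fold, 3.85 to 4.46), where 19.2% of all 7802 genes were, and mt-Tc (0.231-fold) and mt-Tm (0.0497-fold) were lower, where 16% of all genes were. As a share of the 12 genes, 1 higher is under and 2 lower is near that of all genes. mt-Rnr2 (2.91-fold) and mt-Tg (2.85-fold) were the next highest and mt-Ts2 (0.370-fold) the next lowest.

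The sum depended on the reads that were counted. It was higher at 10 dpp with distinct sequences (2.14 on the log2 scale), within 20 to 28 nt (0.45) and without mt-Ts2 (0.066). By distinct sequences mt-Rnr1, mt-Rnr2 and mt-Co1 were called higher and no gene lower, where 58.7% of all genes were higher. mt-Tm at 29 to 35 nt was 0.00323-fold at 10 dpp, where all reads of that length were 0.0680-fold, and within 18 to 28 nt mt-Tm was not called. With miRNA scaling mt-Rnr1 was not called and mt-Ts2 was called lower, with 3.35% of all genes higher and 21.3% lower. With TMM scaling mt-Rnr1 was not called either, with 13.1% higher and 19.7% lower.

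**Figure D5:**
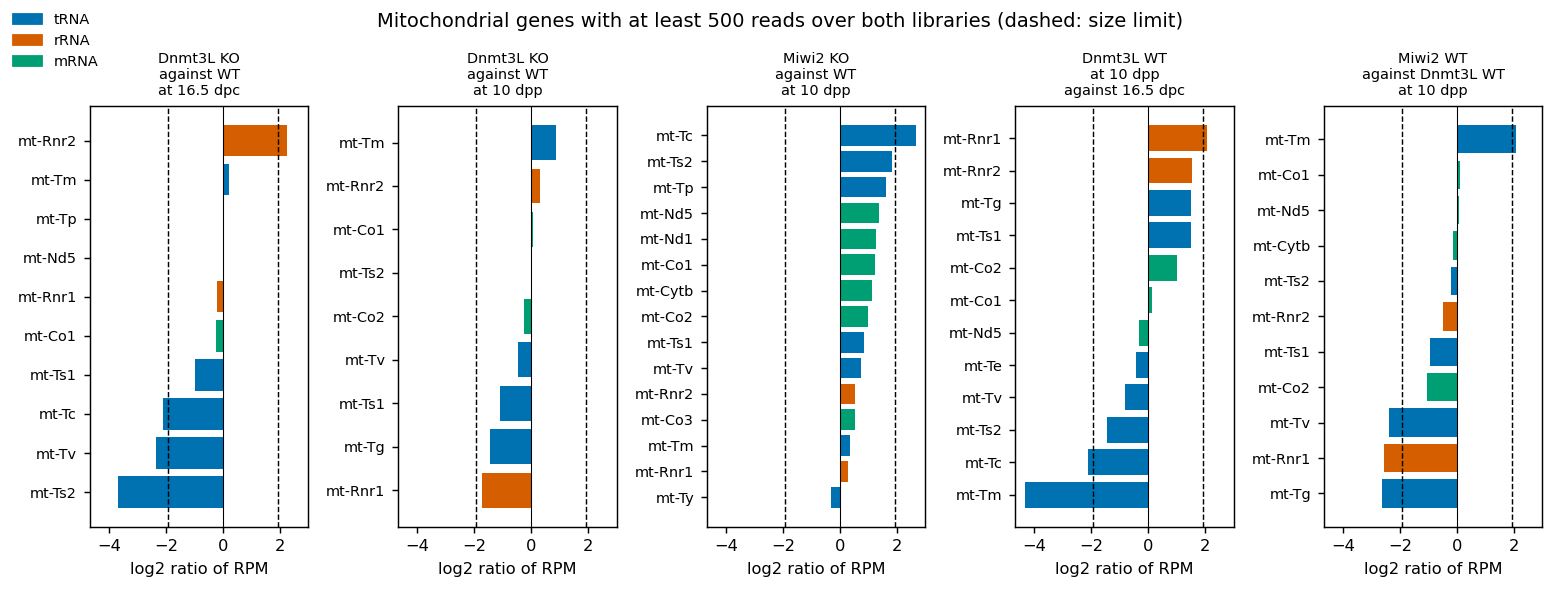
Bars give the log2 ratio of RPM for the mitochondrial genes with at least 500 reads over both libraries, coloured by class, in 5 comparisons, with dashed lines at the limit of 1.93. mt-Ts2 and mt-Rnr2 lie past the lines on opposite sides at 16.5 dpc, no bar of the Dnmt3L KO at 10 dpp passes a line, and 14 of 15 bars point to the right in the Miwi2 KO.

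mRNAs of the machinery that makes and processes mitochondrial RNA gave few small RNAs. Of 26 genes listed (Polrmt, Tfam, Elac2, Trnt1, Lrpprc and others), 0 to 3 reached 500 reads in a comparison. 1 was called: Tfb2m, a transcription factor of mitochondria, was at 11.9 RPM in the fetal Dnmt3L WT and at 0.788 RPM in that of 10 dpp (0.0661-fold). It was 1 of 2 listed genes tested there, where 16% of all genes were lower. Of 15 piRNA factors of mitochondria and germ granules, 2 reached the minimum in each comparison. These were Tdrkh and Pnldc1, the exonuclease that trims piRNA 3′ ends, and both were lower in the Dnmt3L KO at 10 dpp, at 76.7 against 626 RPM (0.123-fold) and at 94.3 against 784 RPM (0.1202-fold). As 70.5% of all genes were lower there, this sets neither apart.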

How the data were processed

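Per the labels' protocols, Trizol RNA of whole testis was size-selected to 18 to 35 nt and sequenced from Illumina TruSeq small RNA libraries. The deposited tables list each read sequence with its raw count, per the file contents, and the submitters' processing notes name the build mm9. How adapters were trimmed is not stated in the labels or files. Depth is the sum of the counts.

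Reads of 18 to 35 nt were compared without mismatch with 1 transcript, the longest, of each of 55450 GENCODE vM21 genes, in both orientations (Python 3.11.15, numpy 2.4.6, numba 0.67.0). A read counted in full in each gene that holds it, and once in a class. Coordinates are on GRCm38. Levels are RPM of all reads. The 95% intervals (exact Clopper-Pearson for shares, Poisson for levels, binomial given the sum for ratios, scipy 1.17.1) hold counting error alone, because PCR copies could not be told from separate molecules. Matching was tested on simulated reads. The limit was tried on simulated counts with symmetric noise and no shift between both WT pools, whose real median log2 ratio was 0.58. That trial therefore does not show how the limit holds in these libraries. edgeR 4.0.16 gave TMM factors for an alternative scaling.

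The genes, lists and rules were chosen with earlier results of these data known. By rule, the 10 genes with the most reads were described in full, with the 3 highest and 3 lowest ratios of each comparison. Sequences are shown for the rRNAs and tRNAs among the 10. The D-loop and other stretches outside the genes were not analysed here.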

Additional observations from a re-analysis of the deposited data

Results flagged for a closer look

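Some mitochondrial reads lie outside the counting rule. Reads that end in an added C, CC or CCA numbered 32330 over the 6 libraries, of which 23224 were of mt-Tv. Reads that span the border between neighbouring genes numbered 288, or 0.236 to 2.77 RPM, and were fewest in the fetal Dnmt3L WT and most in the Miwi2 KO. No library without mitochondrial RNA was at hand as a control, so both are set against the 3 counts taken as measurable.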

How the results depend on the processing

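Each group had 1 library, so no replicate could be left out and no paired analysis was possible because the groups share no further replicate. Sums are log2 ratios. For the fetal Dnmt3L KO (-0.24) the sum was 0.73 within 24 to 32 nt, 0.38 within 20 to 28 nt, 0.71 without mt-Ts2, -1.23 without mt-Rnr2 and -0.37 with 1 mismatch allowed in tRNA genes. For the Dnmt3L KO at 10 dpp (-0.019) it was -0.25 scaled to miRNA reads, 2.17 with TMM (mt-Ts2 also 2.17) and -0.20 within 24 to 32 nt. For the Miwi2 KO (1.16) it was 0.93 by distinct sequences. For 10 dpp against 16.5 dpc (-0.51) it was -0.91 with TMM, 2.14 by distinct sequences, -0.11 within 18 to 28 nt, 0.45 within 20 to 28 nt and 0.066 without mt-Ts2. Between both WT pools (-0.45) it was 0.23 scaled to miRNA reads, -0.34 scaled to 18 to 35 nt reads, -1.22 with TMM, -2.07 by distinct sequences, -0.67 within 18 to 28 nt, -0.16 within 24 to 32 nt, -0.39 with tails, -0.53 within 20 to 28 nt, -0.55 without mt-Ts2 and -0.36 with 1 mismatch. The alternatives of 20 to 28 nt, of leaving out a gene and of 1 mismatch were chosen after seeing the data.

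The number of genes past the limit follows, with the percent of all genes higher and lower in brackets. In the fetal Dnmt3L KO, 4 became 1 scaled to miRNA reads (0.243, 0.217), 0 by distinct sequences (0, 0.0259), where mt-Rnr2 was -0.16, 1 within 24 to 32 nt (0.149, 0.164) and 7 with a minimum of 100 reads (0.222, 0.267). In the Dnmt3L KO at 10 dpp, 0 became 4 with TMM (8.62, 0.235), 1 by distinct sequences (5.21, 1.225), 1 within 24 to 32 nt (0.145, 74.2), 1 with a minimum of 2000 reads (0.157, 78.4) and 3 with a log2 limit of 1 (1.505, 85.5). In the Miwi2 KO, 1 became 2 with TMM (5.22, 0.06005), 0 within 18 to 28 nt (4.63, 0.0916) and 7 with a limit of 1 (8.298, 3.59). It stayed 1 by distinct sequences (7.33, 0), but as mt-Co1 in place of mt-Tc, and with a minimum of 2000 reads (6.62, 0.0528) as mt-Ts2. Between ages, 3 became 1 for reads of no other gene (36.1, 23.98) and 8 with a limit of 1 (40.02, 25.3). Fewer sequences or genes enter by distinct sequences or a higher minimum. Other causes were not tested. Depth limits the genes of low level: 22 to 28 of the 37 stayed under 500 reads.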

Other observations

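Exact matching left out reads with a changed base. Reads with 1 substitution against a tRNA gene and no exact match numbered 20804, which is 11.04% of all sense tRNA reads with tailed and changed reads included. Positions are counted from 1 at the 5′ end of the tRNA gene, with the gene's base first and the read's base last. The most frequent change was G3T in mt-Ts2. Changed reads at base 3, of which 96.3% carried this change, numbered 6111, and in library order 4720, 347, 11, 8, 245 and 780, so the fetal Dnmt3L WT held most of them. Among the 25 positions with the most changed reads, 6 had over 30% of the reads over the base changed. The changed share was 71.4% at base 58 of mt-Tl1 (C58A), 70.6% at base 9 of mt-Tl2 (A9T), 58.6% at base 29 of mt-Ts1 (C29T), 35.3% at base 9 of mt-Tv (A9T), 33.97% at base 33 of mt-Ts2 (T33A) and 33.5% at base 9 of mt-Ty (G9T), with the leading change in brackets. These positions were chosen after their values were seen, and what gave rise to the changes was not tested.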
